A study of Homo sapiens with 6 samples.

Results

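Antisense long non-coding RNAs (lncRNAs) were examined in RNA-seq libraries of SK-Hep1 cells, a human line from a liver adenocarcinoma. They were taken as the lncRNA genes of GENCODE Release 44 whose symbol ends in -AS and a number, and were chosen by their level, a mean over the 6 libraries of 1 TPM (transcripts scaled for length and library total) or more. This gave 336 of the 1815 antisense lncRNAs annotated, among 62700 genes in each file. A further 707 were above 0 but under 1 TPM, and 772 were listed at 0 in every library. Of ASMTL-AS1, which is annotated once on X and once on Y with the same values, the X copy was kept. This level is therefore given only as a description. The rule used the mean over both groups and not their difference. However, 36 members reached a mean of 1 TPM only in the knockdown group and 21 only in the control group, both described below. The members were also chosen with earlier results of these data known. HOXB-AS4 at 1.01 TPM was the lowest inside the threshold, next to PCDHB1-AS1 at 1.01 and THBS3-AS1 at 1.02 TPM, while TDRKH-AS1 and NFYC-AS1 at 0.983 TPM and GOLGA4-AS1 at 0.982 TPM were just outside.

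The libraries fell into 2 groups of 3, shControl and shRAB30-DT, here control and knockdown. The knockdown cells stably carried a lentiviral short hairpin RNA against RAB30-DT, an lncRNA transcribed divergently from RAB30, and both groups were the same cell line. The control titles name a control hairpin while their genotype label is WT, so the effect of the vector and its selection cannot be told apart from that of the knockdown if the controls did not carry it. RAB30-DT was at 18.2, 11.5 and 13.9 TPM in the control and at 11.9, 10.9 and 6.50 TPM in the knockdown libraries. The library labelled knockdown replicate 1 thus lay above the library labelled control replicate 2. The mean was 14.5 ± 3.37 TPM against 9.76 ± 2.88 TPM (SD, n = 3), with p = 0.2 in a two-sided exact permutation test whose smallest possible p is 0.1, and the log2 fold change was -0.55 ± 0.27 (SE, limma adjusted p = 0.355). All directions given for the knockdown therefore follow the labels. The paper reports a qPCR check of the knockdown in this cell line, but does not state that it used the sequenced RNA. It describes 2 hairpins against RAB30-DT, and the titles do not name which was used. The hepatocyte markers ALB, APOA1, TTR, SERPINA1, AFP, TF and HNF4A included 1 gene that reached 1 TPM, with ALB listed at 0 in both groups, none of 7 endothelial markers did, and 6 of 7 mesenchymal markers did, with a summed level of 6016 to 6392 TPM in the control and 6079 to 6631 TPM in the knockdown libraries. Of the markers, SERPINA1 (18.1 to 24.0 TPM against 28.3 to 37.2 TPM) and VIM, which makes up most of the sum, were higher and CAV1 and SPARC lower in every knockdown library, with 0 called by limma.

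An antisense lncRNA is transcribed from the strand opposite to another gene, usually one that encodes a protein, and is named after that sense gene. Some overlap the start of the sense gene and run away from it across its promoter region, some start beyond its end and run back into it, and others lie wholly within it or span it. Such RNAs can pair with the sense RNA, affect the chromatin or transcription of the locus, act elsewhere in the cell, or have no known function. Many are spliced and polyadenylated, and many are kept at low levels by nuclear RNA decay. Of the 336, 330 had the gene they are named after in the annotation, 327 of them protein-coding. The other 6 were HOXA-AS2, HOXB-AS1, HOXB-AS3, HOXB-AS4 and HOXC-AS3, named after gene clusters, and ZNF295-AS1. In 143 the gene bodies overlapped at the starts and in 71 at the ends, 62 lay inside the sense gene, 30 contained it, and 21 lay apart with starts facing away from each other. FAM131B-AS2 and HILPDA-AS1 were annotated on the same strand as their namesake. Exons of 253 members shared bases with exons of the sense gene.

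The 6 members whose promoters are shown are the 3 that passed the test and the 3 largest increases among those whose groups did not overlap. The sequences are from RefSeq (GRCh38.p14), from 250 bases before to 50 bases after the start, printed 5′ to 3′ on the strand of the antisense lncRNA, with the CpG dinucleotides in capitals. MELTF-AS1 is from chr3:197002656-197002955 (plus strand), TIRAP-AS1 from chr11:126304273-126304572 (minus), ZNF232-AS1 from chr17:5111685-5111984 (plus), PDK1-AS1 from chr2:172556415-172556714 (minus), FRMD6-AS2 from chr14:51599903-51600202 (minus) and PDE7B-AS1 from chr6:136072778-136073077 (minus).
MELTF-AS1: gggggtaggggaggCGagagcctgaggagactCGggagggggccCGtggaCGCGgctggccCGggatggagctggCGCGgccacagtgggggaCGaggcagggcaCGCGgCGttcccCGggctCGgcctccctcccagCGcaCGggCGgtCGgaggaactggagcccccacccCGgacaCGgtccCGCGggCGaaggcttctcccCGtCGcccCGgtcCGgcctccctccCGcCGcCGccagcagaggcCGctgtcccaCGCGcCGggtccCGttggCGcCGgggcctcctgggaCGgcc
TIRAP-AS1: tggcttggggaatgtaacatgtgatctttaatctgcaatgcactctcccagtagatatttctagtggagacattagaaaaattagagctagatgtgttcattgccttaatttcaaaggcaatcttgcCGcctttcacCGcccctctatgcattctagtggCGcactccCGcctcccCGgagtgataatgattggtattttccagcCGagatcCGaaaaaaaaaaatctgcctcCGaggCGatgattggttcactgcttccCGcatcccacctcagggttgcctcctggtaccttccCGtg
ZNF232-AS1: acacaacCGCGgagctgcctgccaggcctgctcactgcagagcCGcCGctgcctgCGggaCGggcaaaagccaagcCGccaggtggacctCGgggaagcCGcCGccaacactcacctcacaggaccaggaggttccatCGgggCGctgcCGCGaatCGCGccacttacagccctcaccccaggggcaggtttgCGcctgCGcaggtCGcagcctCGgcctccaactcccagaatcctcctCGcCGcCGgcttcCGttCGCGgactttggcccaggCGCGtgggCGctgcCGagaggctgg
PDK1-AS1: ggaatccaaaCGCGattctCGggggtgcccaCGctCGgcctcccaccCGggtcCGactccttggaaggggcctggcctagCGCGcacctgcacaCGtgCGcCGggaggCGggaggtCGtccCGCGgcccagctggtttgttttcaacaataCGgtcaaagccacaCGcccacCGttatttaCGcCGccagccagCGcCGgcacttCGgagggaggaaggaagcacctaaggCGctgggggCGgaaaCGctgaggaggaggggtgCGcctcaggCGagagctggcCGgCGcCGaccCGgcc
FRMD6-AS2: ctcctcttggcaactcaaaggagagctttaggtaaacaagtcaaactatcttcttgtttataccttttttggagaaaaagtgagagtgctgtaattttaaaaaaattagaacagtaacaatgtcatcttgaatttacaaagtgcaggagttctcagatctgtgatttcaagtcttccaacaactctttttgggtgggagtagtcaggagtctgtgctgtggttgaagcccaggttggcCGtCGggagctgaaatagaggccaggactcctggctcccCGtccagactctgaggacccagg
PDE7B-AS1: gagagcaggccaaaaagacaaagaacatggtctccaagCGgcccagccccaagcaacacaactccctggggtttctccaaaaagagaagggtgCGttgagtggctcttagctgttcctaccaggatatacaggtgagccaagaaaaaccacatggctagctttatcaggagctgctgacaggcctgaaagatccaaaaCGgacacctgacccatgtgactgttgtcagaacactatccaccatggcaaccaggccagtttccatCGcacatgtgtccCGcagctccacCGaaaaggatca

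CpG dinucleotides numbered 38 in the window of MELTF-AS1, 33 in that of PDK1-AS1, 30 in that of ZNF232-AS1 and 11 in that of TIRAP-AS1, but 6 in that of PDE7B-AS1 and 3 in that of FRMD6-AS2. The ratio of observed to expected CpG was 0.814, 0.925, 0.817, 0.645, 0.298 and 0.206 in the same order. RefSeq held a promoter window for 257 of the 336 members. Their median ratio was 0.780 and 73.5% were at 0.6 or above, compared with 0.580 and 49.0% over all 27305 windows of the same length. Those windows were not limited to genes at 1 TPM or more in these cells, as the members were, and the part of this in the difference was not tested. The ratio was at 0.6 or above in 75.6% of the members overlapping their sense gene at the starts, 81.0% of those overlapping at the ends, 94.1% of those apart with starts facing away, 72.7% of those containing it and 52.9% of those lying inside it. The start in RefSeq lay 1 base from the GENCODE start for TIRAP-AS1 and 132 bases for PDK1-AS1, but 3446 bases away for MELTF-AS1, 14712 for ZNF232-AS1, 51792 for FRMD6-AS2 and 152924 for PDE7B-AS1, in each case inside the GENCODE gene.

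The antisense lncRNAs were compared between knockdown and control to see which of them differed. The 3 that fell were MELTF-AS1, TIRAP-AS1 and ZNF232-AS1, and 0 rose, at an adjusted p under 0.05 (limma, Benjamini-Hochberg over 14020 genes, those whose mean over all libraries reached 1 TPM). Over all tested genes 1.04% were called, 0.371% higher and 0.67% lower, and 0.893% of the antisense lncRNAs. MELTF-AS1 and TIRAP-AS1 reached 1 TPM only through the control group, and of the 279 members with a mean of 1 TPM or more in both groups only ZNF232-AS1 was called, beside 1.04% of the 13214 such genes. At an unadjusted p under 0.05, 57 members passed, 43 higher and 14 lower, beside 16.8% of all tested genes, 7.06% higher and 9.7% lower. The count of calls depended on single libraries. Without control replicate 1 it was 8 (5 higher, 3 lower), 2.46% of the members beside 3.49% of all genes, without control replicate 3 it was 3 (2 higher, 1 lower), 0.915% beside 1.14%, and without control replicate 2 or any 1 of the knockdown libraries it was 0, with 40 to 52 members under 0.05 before adjustment. The libraries also differed in how levels followed GC content, and with this trend removed 25 members were called, 19 higher and 6 lower, compared with 8.65% of all tested genes, 3.94% higher and 4.71% lower.

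MELTF-AS1 lies inside MELTF, which encodes the iron-binding surface protein melanotransferrin, on the opposite strand (chr3:196999460-197004744, hg38), and 44.9% of its exon bases overlap exons of MELTF. It was at 18.5, 4.86 and 7.11 TPM in the control and at 0.71, 0.95 and 1.04 TPM in the knockdown libraries. All 3 knockdown libraries were below every control, and control replicate 1 stood far above the other 2 controls. The mean was 10.2 ± 7.31 TPM against 0.900 ± 0.171 TPM (SD, n = 3), a log2 fold change of -2.36 ± 0.42 (SE, limma adjusted p = 0.0491), always on the log2(TPM + 1) scale, which understates the change of low genes. MELTF itself was at 14.5, 21.9 and 24.1 TPM in the control and 16.6, 23.5 and 27.5 TPM in the knockdown libraries, with overlapping groups and a log2 fold change of 0.16 ± 0.26 (limma adjusted p = 0.807). The log2 ratio of MELTF-AS1 to MELTF fell from 0.33, -1.96 and -1.63 to -3.36, -3.65 and -3.80. The limma adjusted p of MELTF-AS1 was under 0.05 in 7 of 17 alternatives, and 0.107 without control replicate 2, 0.0691 without control replicate 3 and 0.164 to 0.18 without each knockdown library.

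TIRAP-AS1 runs back into the end of TIRAP, the adaptor that bridges Toll-like receptors and MYD88 (chr11:126294296-126304323, minus strand). It was at 3.10, 3.97 and 4.12 TPM in the control and at 0.31, 0.81 and 0.51 TPM in the knockdown libraries, so every knockdown library was lower than every control. The log2 fold change was -1.62 ± 0.27 (limma adjusted p = 0.0417). TIRAP was at 4.86, 5.91 and 5.50 TPM against 4.34, 3.87 and 4.30 TPM, and its groups did not overlap either, but its log2 fold change of -0.31 ± 0.20 did not pass (limma adjusted p = 0.487). The antisense RNA was thus about as abundant as the sense RNA in the control cells, with a log2 ratio of -0.52 to -0.34, and the ratio was -2.03 to -1.43 in the knockdown libraries.

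ZNF232-AS1 overlaps the end of ZNF232, a zinc finger gene (chr17:5097223-5115004, plus strand), and 17.5% of its exon bases overlap exons of that gene. It was at 25.8, 29.8 and 25.7 TPM in the control and at 13.6, 11.4 and 12.9 TPM in the knockdown libraries. The 3 libraries of each group were close together, and its within-group SD of 0.12 on the log2 scale was the smallest of the 3 called. The mean was 27.1 ± 2.33 TPM against 12.6 ± 1.10 TPM (SD, n = 3), a log2 fold change of -1.05 ± 0.17 (limma adjusted p = 0.0417). ZNF232 was less abundant than its antisense RNA in all 6 libraries, at 12.8, 12.3 and 11.0 TPM in the control and 10.3, 9.22 and 9.63 TPM in the knockdown libraries (log2 fold change -0.28 ± 0.18, limma adjusted p = 0.465). TIRAP-AS1 was called in 10 of 16 alternatives and ZNF232-AS1 in 11 of 17, and without control replicate 2 or 1 of the knockdown libraries the limma adjusted p was 0.152 to 0.179 for the first and 0.136 to 0.23 for the second. Without control replicate 3 that of TIRAP-AS1 was 0.0691.

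In 66 members every knockdown library lay above every control (19.6%, compared with 9.89% of all tested genes), and in 19 every knockdown library lay below (5.65%, compared with 13.4%). In the 279 members at 1 TPM in both groups these were 50 (17.9%) and 15 (5.38%), compared with 9.31% and 13.5% of the genes that met the same limit. Such shares were not particular to antisense lncRNAs. Above and below lay 23.1% and 4.96% of the lncRNAs with symbols ending in -DT, and 23.4% and 5.52% of those with LINC symbols. In all other lncRNAs they were 15.4% and 4.95%. Among the 66 members above, PDE7B-AS1 changed most. It overlaps the end of PDE7B, a cAMP phosphodiesterase gene, and was at 6.30, 4.92 and 0.73 TPM in the control and 21.0, 20.3 and 18.3 TPM in the knockdown libraries. The knockdown libraries were alike and control replicate 3 was the lowest of all, with a log2 fold change of 2.31 ± 0.49 (limma adjusted p = 0.0739). PDE7B was at most 0.36 TPM in any library, below its antisense RNA in all 6. Without control replicate 1 or 3 the adjusted p of PDE7B-AS1 was 0.0277 or 0.017 (limma), a call in either case.

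FRMD6-AS2, which starts within FRMD6, a FERM domain gene, and runs upstream of it, was at 2.13, 1.23 and 2.85 TPM in the control and 13.8, 12.7 and 5.82 TPM in the knockdown libraries (log2 fold change 1.89 ± 0.36, limma adjusted p = 0.057). FRMD6 was at 91.4 ± 4.63 TPM against 84.6 ± 4.89 TPM (SD, n = 3), with overlapping groups. The log2 ratio of the antisense to the sense RNA was -5.30 to -4.59 in the control and -3.62 to -2.59 in the knockdown libraries. Exons of FRMD6-AS2 share no base with any exon on the other strand.

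PDK1-AS1 overlaps the start of PDK1, the gene of a kinase that inhibits pyruvate dehydrogenase, and runs away from it. It was at 1.74, 0.51 and 2.41 TPM in the control and 7.78, 6.20 and 6.90 TPM in the knockdown libraries (log2 fold change 1.72 ± 0.33, limma adjusted p = 0.0588). PDK1 rose as well, from 13.9, 8.37 and 6.69 TPM to 39.2, 36.2 and 26.2 TPM (log2 fold change 1.75 ± 0.28, limma adjusted p = 0.0368). Without control replicate 1 or 3 PDK1-AS1 was called, with a limma adjusted p of 0.0398 or 0.0416. Their log2 ratio overlapped between the groups and differed by -0.03 (exact permutation p = 1). TM4SF19-AS1, which overlaps the end of the membrane protein gene TM4SF19, was at 0.76, 2.82 and 4.00 TPM against 9.47, 4.65 and 14.1 TPM (log2 fold change 1.58 ± 0.47, limma adjusted p = 0.152). TM4SF19 rose from 19.1 ± 6.54 TPM to 85.6 ± 11.3 TPM (SD, n = 3), with a log2 fold change of 2.16 ± 0.27 (limma adjusted p = 0.024). In both pairs the listed values of the antisense and the sense gene were higher in every knockdown library. The protocol does not state that strand was kept, so reads in any shared exons cannot be assigned to 1 strand.

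The other 4 of the 8 largest increases were at lower levels or lay inside their sense gene. STXBP5-AS1, which overlaps the start of STXBP5, the gene of the SNARE regulator tomosyn, was at 0.52, 0.60 and 0.25 TPM against 2.67, 3.27 and 2.51 TPM (limma adjusted p = 0.0616). Here STXBP5 was at 6.61 ± 1.76 TPM in the control and 5.67 ± 0.720 TPM in the knockdown libraries (SD, n = 3), and the groups overlapped. EML2-AS1 lies inside EML2, a microtubule-associated protein gene, with 95.0% of its exon bases in exons on the other strand. It was listed at 0, 0.44 and 0.61 TPM in the control and 1.75, 3.30 and 3.04 TPM in the knockdown libraries (limma adjusted p = 0.088). NAV2-AS6 and DENND3-AS1 lie in introns of NAV2 and DENND3 without exon overlap. NAV2-AS6 was at 0.61 to 0.88 TPM against 2.52 to 3.92 TPM, and DENND3-AS1 at 1.88 to 3.58 TPM against 5.54 to 11.8 TPM. None of the 8 passed the test, their adjusted p ranging from 0.057 to 0.152 (limma). STXBP5-AS1, EML2-AS1 and NAV2-AS6 reached 1 TPM only through the knockdown group. With the GC trend removed 6 of the 8 were called, all but TM4SF19-AS1 and DENND3-AS1, with adjusted p of 0.0167 to 0.0275 (limma). Over all tested genes 8.65% were called in that setting. As the 8 were chosen by the size of their increase, these calls are no further support.

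**Figure D1:**
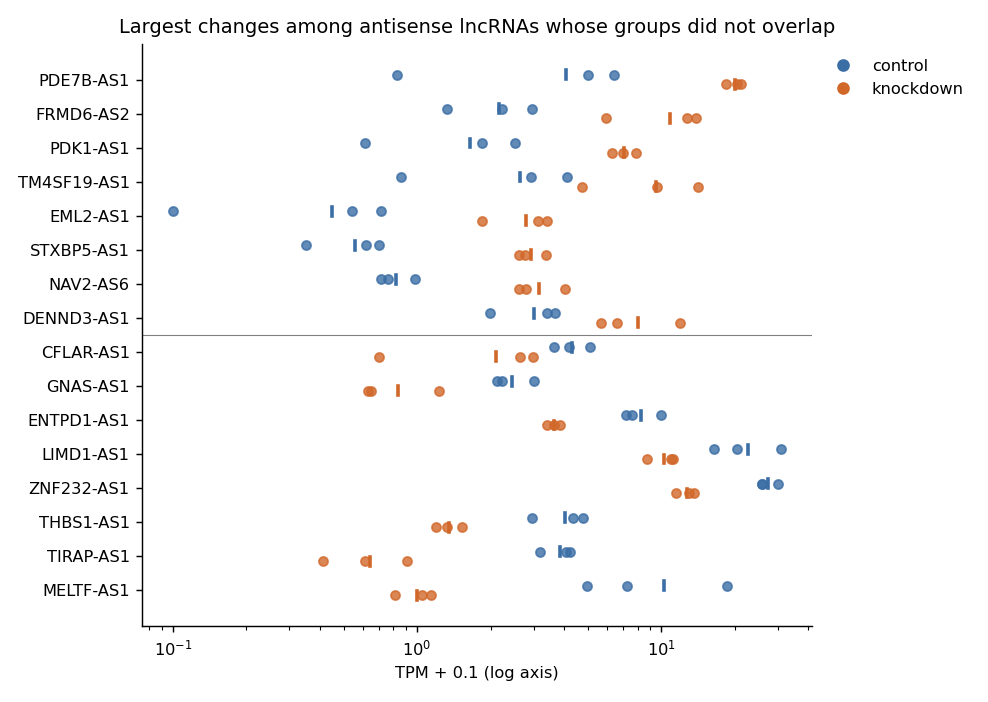
Each point is 1 library's TPM plus 0.1 on a log axis for the 8 largest increases (above the line) and the 8 largest decreases among the antisense lncRNAs whose groups did not overlap, with vertical bars at the means of TPM plus 0.1 (n = 3, control blue, knockdown orange). The knockdown libraries of PDE7B-AS1 lie at 18.3 to 21.0 TPM, and those of MELTF-AS1 at 0.71 to 1.04 TPM.

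Among the members with all knockdown libraries below the controls, THBS1-AS1 came with its sense gene. THBS1-AS1 lies inside THBS1, the gene of the matrix protein thrombospondin 1, and shares 78.1% of its exon bases with THBS1 exons. It was at 4.67, 2.85 and 4.26 TPM against 1.42, 1.09 and 1.23 TPM (log2 fold change -1.12 ± 0.26, limma adjusted p = 0.0933). THBS1 fell from 184, 169 and 157 TPM to 79.9, 76.0 and 59.4 TPM (log2 fold change -1.24 ± 0.17, limma adjusted p = 0.0252), and the log2 ratio of the pair overlapped between the groups (exact permutation p = 0.7).

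LIMD1-AS1 overlaps the end of LIMD1, a LIM domain scaffold gene, with 69.6% of its exon bases in LIMD1 exons. It was at 30.9, 20.3 and 16.4 TPM against 11.1, 8.67 and 10.8 TPM (log2 fold change -1.03 ± 0.25, limma adjusted p = 0.104). LIMD1 was at 26.2 ± 3.03 TPM against 14.3 ± 5.69 TPM (SD, n = 3), also without overlap of the groups but with a limma adjusted p of 0.194. CFLAR-AS1 was at 4.99, 4.09 and 3.53 TPM against 2.88, 2.54 and 0.60 TPM, and CFLAR, an inhibitor of caspase 8, was lower in every knockdown library too, at 107 ± 22.9 TPM against 64.2 ± 1.03 TPM (SD, n = 3, limma adjusted p = 0.112).

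In the other 2 of these the sense gene was under the threshold or overlapped between the groups. ENTPD1-AS1, a long antisense RNA at the end of ENTPD1, the gene of the ectonucleotidase CD39, was at 7.09, 7.51 and 9.85 TPM against 3.55, 3.76 and 3.30 TPM (log2 fold change -1.0 ± 0.21, limma adjusted p = 0.0763). It was above ENTPD1 in every library, which was at 0.62 to 1.59 TPM and was not tested since its mean was under 1 TPM. GNAS-AS1, the imprinted antisense RNA of GNAS, was at 2.90, 2.03 and 2.12 TPM against 0.53, 0.55 and 1.13 TPM, whereas GNAS, which encodes the stimulatory G protein alpha subunit, was at 889 ± 167 TPM against 818 ± 45.8 TPM (SD, n = 3) with overlapping groups. GNAS-AS1 reached a mean of 1 TPM only through the control group.

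The members were mostly low. Their mean level had a median of 2.73 TPM, 128 were under 2 TPM and 45 at 10 TPM or above. By mean level the highest were FGD5-AS1 at 94.8 TPM, TUBA1B-AS1, KAZN-AS1 at 62.9 TPM, FOXD1-AS1 and AGAP2-AS1 at 38.2 TPM. FGD5-AS1 was at 123, 85.1 and 79.0 TPM against 111, 93.6 and 76.9 TPM, with overlapping groups, while FGD5, the gene of an endothelial guanine nucleotide exchange factor, was listed at 0 in every library. KAZN-AS1, in an intron of the kazrin gene KAZN, was at 55.1, 48.1 and 43.1 TPM against 73.7, 82.0 and 75.5 TPM, with every knockdown library above the controls (log2 fold change 0.66 ± 0.16, limma adjusted p = 0.104), and KAZN was at 23.3 ± 3.10 TPM against 23.0 ± 0.556 TPM (SD, n = 3). AGAP2-AS1 was at 27.2, 36.9 and 40.9 TPM against 32.2, 43.5 and 48.3 TPM, and AGAP2 at 0.17 to 1.42 TPM. Of the exon bases of AGAP2-AS1, 91.9% are shared with another gene on its own strand, which leaves its level uncertain. Of the 274 members whose sense gene was tested, 29 had a higher mean level than it, and the median ratio of the antisense to the sense level was 0.118. TPM are scaled to transcript length, so levels of different genes can be set side by side. They are uncertain for the 278 members with exon bases shared with the other strand, since the protocol does not state that strand was kept. The same holds for the ratios to the sense level.

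Of 3 antisense lncRNAs that the study lists among its splicing- and stemness-related lncRNAs, 0 passed the test. MAPKAPK5-AS1, which overlaps the start of the kinase gene MAPKAPK5, was at 22.2, 13.6 and 19.2 TPM against 26.4, 26.8 and 23.3 TPM, higher in every knockdown library (log2 fold change 0.48 ± 0.21, limma adjusted p = 0.31). DNAJC9-AS1 was at 2.03, 4.10 and 3.38 TPM against 3.19, 3.19 and 4.62 TPM, with overlapping groups. Its neighbour DNAJC9, which encodes a histone chaperone, was at 76.1, 67.0 and 93.7 TPM against 49.3, 46.5 and 44.9 TPM (log2 fold change -0.73 ± 0.18, limma adjusted p = 0.098). ZBTB11-AS1 was at 2.04, 3.26 and 2.89 TPM against 2.57, 3.53 and 3.09 TPM, again with overlapping groups.

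As a class the antisense lncRNAs were shifted upward in the knockdown libraries. Their median log2 fold change was 0.23, with 232 of 336 (69.0%) higher and 104 lower, compared with a median of -0.04 and 46.3% higher over all tested genes. In the 279 members that reached a mean of 1 TPM in both groups the median was 0.21. A further 36 had such a mean only in the knockdown and 21 only in the control libraries. It was 0.25 after scaling by medians of ratios or with the GC trend removed, and 0.15 after quantile normalization. The shift was also seen in other lncRNAs. It was 0.26 in 121 divergent lncRNAs with symbols ending in -DT, 0.24 in 145 with LINC symbols and 0.17 in 989 other lncRNAs, and -0.06 in 11727 protein-coding genes. At like levels of 1 to 2 TPM the median was 0.23 for 128 antisense lncRNAs, 0.18 for 409 other lncRNAs and -0.01 for 687 protein-coding genes. In the same order it was 0.17 for 105, 0.16 for 294 and 0.01 for 1318 at 2 to 5 TPM. At 5 to 20 TPM it was 0.27 for 89, 0.15 for 217 and -0.01 for 3825.

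**Figure D2:**
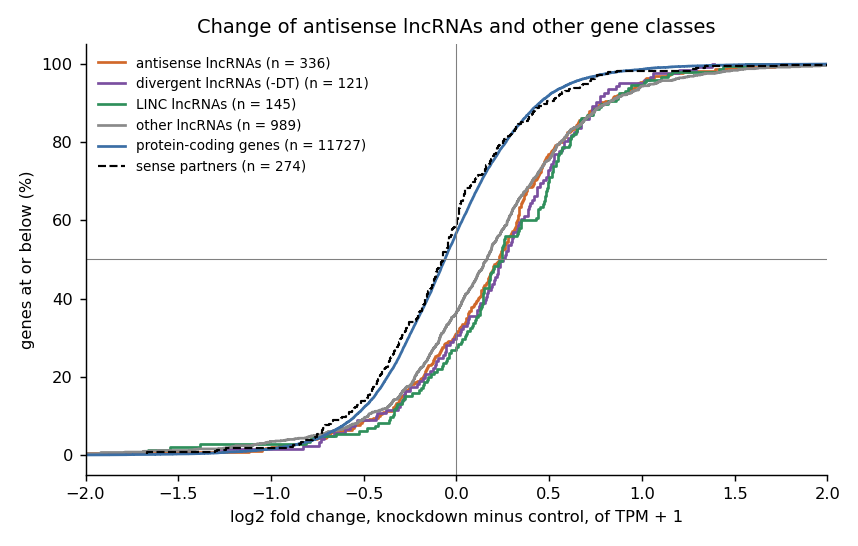
The share of genes (%) at or below each log2 fold change of TPM + 1, knockdown minus control, within the range shown, for the antisense lncRNAs, 3 other lncRNA classes, protein-coding genes and the sense partners of the antisense lncRNAs. The curves of the 4 lncRNA classes run to the right of those of the protein-coding genes and the sense partners, with medians of 0.17 to 0.26 against -0.06 and -0.07.

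By library, the median deviation of the members from their own mean over the 6 libraries, on the log2(TPM + 1) scale, was -0.12, -0.13 and -0.07 in the control and 0.14, 0.20 and 0.04 in the knockdown libraries. Since each gene is centred on its own mean, values of both signs are bound to occur, and the groups did not overlap. In protein-coding genes it was 0.10, 0.08 and -0.08 against 0.00, 0.00 and -0.09, with overlapping groups. In control replicate 3 the antisense lncRNAs thus lay at about the same deviation as the protein-coding genes, and knockdown replicate 3 was the closest to the controls. The share of TPM taken by lncRNAs was 2.08 to 2.28% in the control and 2.12 to 2.22% in the knockdown libraries, and that of mitochondrial transcripts 8.75 to 10.6% and 8.80 to 11.1%. The nuclear-retained NEAT1 rose from 135, 160 and 195 TPM to 401, 434 and 364 TPM (log2 fold change 1.3 ± 0.17, limma adjusted p = 0.0247), while MALAT1, also nuclear, overlapped between the groups at 259, 114 and 141 TPM against 238, 210 and 130 TPM. The part of RNA composition and of nuclear RNA in the shift was not tested.

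**Figure D3:**
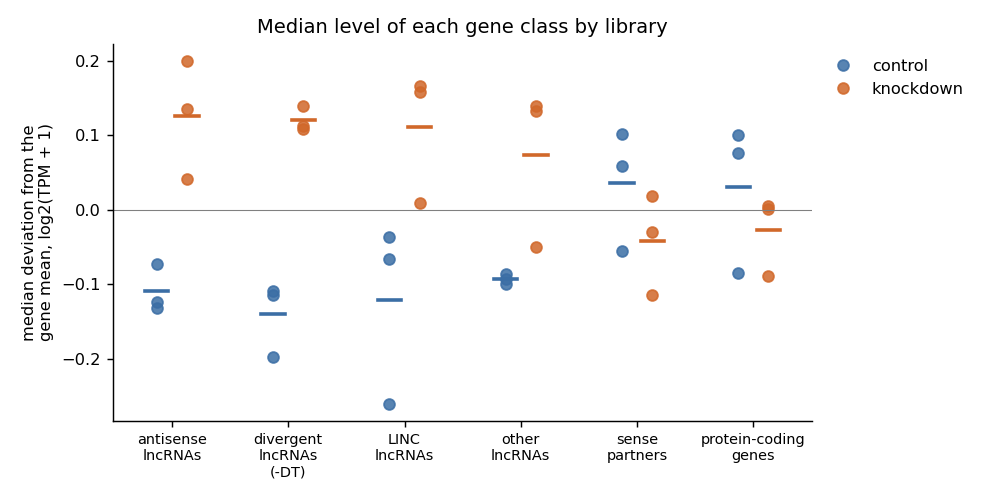
Median deviation of each gene class from the gene's mean over the 6 libraries, log2(TPM + 1), 1 point a library (control blue, knockdown orange, bars at the mean of 3). The antisense lncRNAs lie at -0.13 to -0.07 in the control and 0.04 to 0.20 in the knockdown libraries, while the protein-coding genes overlap.

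The sense genes were set beside their antisense RNAs to see whether both moved together. The 274 tested sense partners had a median log2 fold change of -0.07, as against 0.21 for the antisense lncRNAs of the same pairs. Antisense and sense RNA moved in the same direction in 144 of 274 pairs (52.6%). In these pairs 185 antisense RNAs were higher and 161 sense RNAs lower, and both held in 101. Across the pairs the log2 fold changes had a Pearson r of 0.22 and a Spearman rho of 0.16, a description over pairs measured in the same 6 libraries. The r was 0.22 in the 211 pairs with exon overlap, 0.27 in 42 with overlap of the gene bodies only and 0.18 in 21 without overlap. By layout it was 0.09 in the 126 pairs overlapping at the starts and 0.49 in the 59 overlapping at the ends, with a rho of 0.05 and 0.32, and the share in the same direction was 49.2% and 52.5%. Where both RNAs of a pair were separated between the groups, 9 pairs were higher and 9 lower on both strands, 10 had a higher antisense and a lower sense RNA, and 0 the reverse. Of all 336 members 19.6% lay above and 5.65% below in every knockdown library, and of the 274 sense partners 10.9% and 18.2%. These shares differ between the classes, and whether the counts of pairs go beyond them was not tested.

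Among the sense partners, 8 passed the test, 5 higher and 3 lower (2.92% of 274, beside 1.04% of all tested genes), and were named after their values were seen. The count was 14 without control replicate 1 and 0 without control replicate 2 or any 1 of the knockdown libraries. Besides PDK1, TM4SF19 and THBS1 they included MME, GAS5, ZNF114, ID2 and TUBA1B. MME, the gene of the peptidase neprilysin, rose from 343 ± 64.5 to 814 ± 71.1 TPM, and MME-AS1 was at 1.87, 1.07 and 0.46 TPM against 3.04, 3.56 and 2.96 TPM, without overlap (limma adjusted p = 0.16). GAS5, a snoRNA host lncRNA, rose from 537 ± 15.8 to 980 ± 27.0 TPM (SD, n = 3), while GAS5-AS1 at 0.47 to 2.58 TPM against 0.72 to 0.94 TPM overlapped.

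Among the pairs with a tested sense gene, those with the greatest differences between the strands included 2 of these. The zinc finger gene ZNF114 rose from 21.1, 19.2 and 7.49 TPM to 89.2, 78.0 and 69.9 TPM (log2 fold change 2.35 ± 0.35, limma adjusted p = 0.0289), and ZNF114-AS1, which overlaps its start, was at 2.08, 2.66 and 4.62 TPM against 1.29, 5.00 and 1.88 TPM. ID2, the gene of an inhibitor of helix-loop-helix factors, fell from 49.3, 54.1 and 101 TPM to 17.8, 23.8 and 17.9 TPM (log2 fold change -1.67 ± 0.29, limma adjusted p = 0.0432). ID2-AS1, which overlaps its start, was at 0.69, 0.49 and 1.33 TPM against 1.90, 1.45 and 1.49 TPM, higher in every knockdown library but not called (limma adjusted p = 0.415). ID2-AS1 reached a mean of 1 TPM only through the knockdown group. The log2 ratio of antisense to sense RNA differed by -2.58 for ZNF114 and 2.20 for ID2, which is the value these pairs were chosen by and is given without a test. MELTF-AS1, FRMD6-AS2 and TUBA1B-AS1 completed the 5 widest of these pairs.

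**Figure D4:**
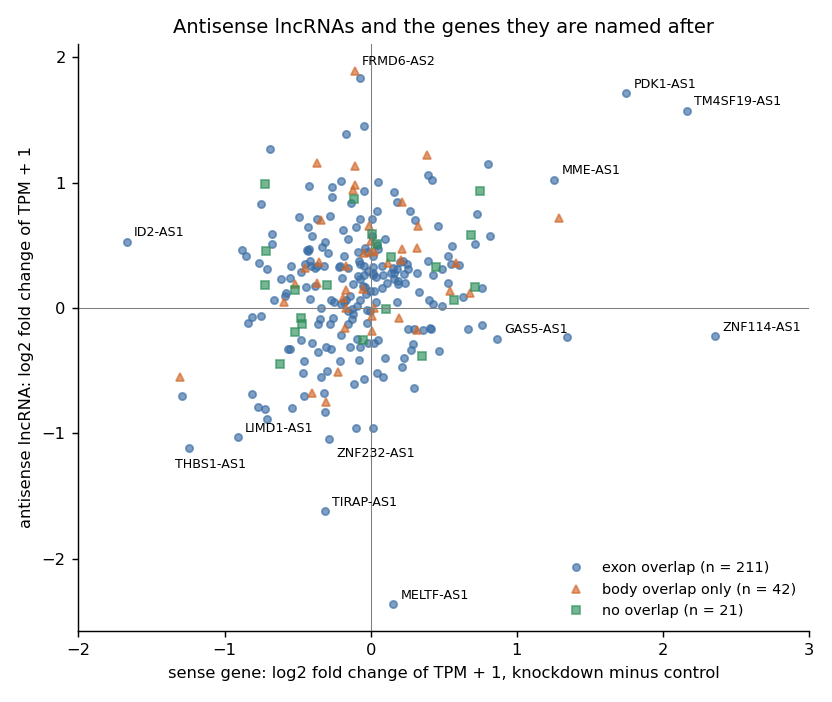
Log2 fold change of TPM + 1, knockdown minus control, of the sense gene (x axis) and of its antisense lncRNA (y axis) for 274 pairs, by overlap of their exons or gene bodies. PDK1-AS1 and TM4SF19-AS1 lie at the upper right with their sense genes, whereas MELTF-AS1 lies at -2.36 with its sense gene at 0.16.

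The spread between the libraries of a group was read beside the overlap of the exons. The within-group SD on the log2(TPM + 1) scale had a median of 0.33 over the members and 0.29 over protein-coding genes. It was 0.39 for 58 members without any exon base shared with the other strand, 0.30 for 201 sharing under 30% of their bases, 0.41 for 69 sharing 30 to under 90%, and 0.92 for 8 sharing at least 90%. The median exon length was 2195, 4451, 2244 and 520 bases in the same order, so that the bin with the longest members had the lowest and that with the shortest the highest SD, and the part of overlap and of length was not tested. An SD of 1 or more occurred in 4 of these 8 and in 7 of the other 328 members. TUBA1B-AS1, which contains the tubulin gene TUBA1B, was at 349, 1.21 and 0.03 TPM in the control and 147, 51.4 and 0.45 TPM in the knockdown libraries, while TUBA1B fell from 2632 ± 84.3 to 1636 ± 104 TPM (SD, n = 3; limma adjusted p = 0.0285). FOXD1-AS1, whose exon bases all lie in the exon of the transcription factor gene FOXD1, was at 124, 15.2 and 0 TPM against 160, 18.0 and 29.1 TPM, and FOXD1 at 181 ± 47.0 TPM against 168 ± 10.9 TPM. RNF185-AS1 at 44.1, 0 and 11.7 TPM against 19.1, 5.16 and 18.8 TPM, and PHLDA1-AS1 at 0, 9.21 and 12.9 TPM against 0, 16.4 and 1.60 TPM, varied in the same way. In 14 members some library was listed at 0. The protocol does not state that the libraries kept the strand, and without it reads of the 2 strands cannot be told apart in shared exons, so that levels of such members, also those of the highest mean level, are uncertain. Of the 3 members that fell, MELTF-AS1, TIRAP-AS1 and ZNF232-AS1 share 44.9%, 37.6% and 17.5% of their exon bases with the other strand. In the 58 members without such bases the median log2 fold change was 0.33, with 13 above (22.4%) and 1 below (1.72%) in every knockdown library, beside 9.89% and 13.4% of all tested genes, and 0 called. In the 3 other lncRNA classes 15.4 to 23.4% lay above and 4.95 to 5.52% below.

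**Figure D5:**
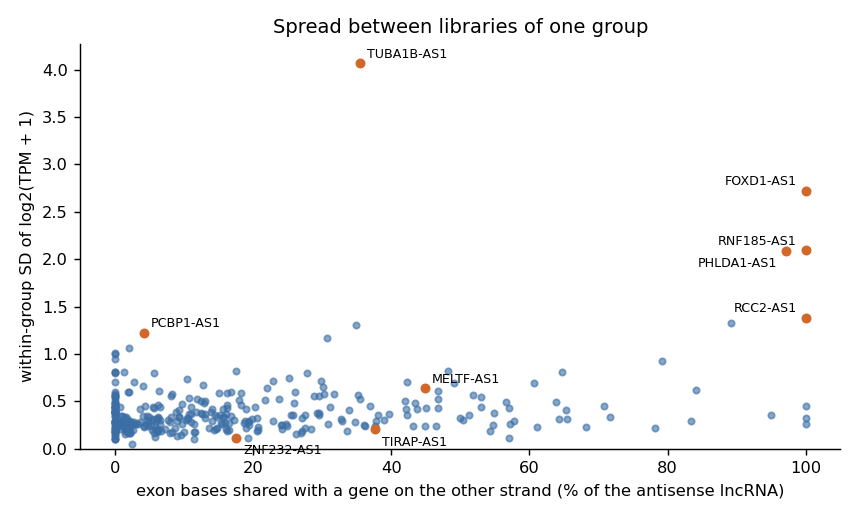
Within-group SD of log2(TPM + 1), pooled over both groups (y axis), against the percent of exon bases shared with a gene on the other strand (x axis) for the 336 antisense lncRNAs, 1 point a gene, with named members in orange. TUBA1B-AS1 at 4.07 and FOXD1-AS1 at 2.72 stand above the others, and ZNF232-AS1 at 0.12 is near the bottom.

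Factors of nuclear RNA decay, the exosome and its adaptors, which limit many antisense RNAs, were mostly lower in the knockdown libraries, although 0 of the 25 passed the test (limma). Before adjustment 8 of the 25 were under 0.05, compared with 16.8% of all tested genes. Of the 25, 20 were lower and 5 higher, with a median log2 fold change of -0.37 beside -0.04 over all genes. All knockdown libraries lay below the controls in 11 of the 25 and above in 0, compared with 13.4% and 9.89% of all tested genes. EXOSC2, an exosome cap subunit, was at 52.0 ± 15.3 TPM against 25.4 ± 1.40 TPM (SD, n = 3; limma adjusted p = 0.0891), NCBP3, a cap-binding subunit, at 30.6 ± 3.87 against 15.8 ± 4.92 TPM (limma adjusted p = 0.121), and the helicase MTREX at 84.0 ± 29.3 against 57.9 ± 7.27 TPM with overlapping groups. These genes were named after their values were seen. The summed level of the list was 1321 to 1437 TPM in the control and 1037 to 1120 TPM in the knockdown libraries. Of 14 proteins that bind double-stranded RNA, 8 were lower and 6 higher and 0 were called, with a median of -0.16. Before adjustment 4 of the 14 were under 0.05 (limma), compared with 16.8% of all tested genes. In every knockdown library 4 of the 14 lay below and 1 above, compared with 13.4% and 9.89% of all tested genes. Among them, and also named after their values were seen, ILF2 was at 286 ± 24.9 against 185 ± 4.57 TPM (SD, n = 3; limma adjusted p = 0.0739) and the RNA editing enzyme ADAR at 80.1 ± 15.2 against 76.4 ± 12.7 TPM with overlapping groups. Whether either group of proteins had a part in the antisense levels was not tested.

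The 7 letters GAGTGAA, which come from an earlier examination of these libraries and so give no independent evidence, were searched on the strand of the transcripts. They were in the exons of 95 of the 336 members (28.3%) and of 35.3% of the protein-coding genes. The median log2 fold change was 0.26 in members with them and 0.22 in those without, and -0.09 and -0.04 in protein-coding genes. Members with them had a median exon length of 6307 bases and those without 2531 bases. None of MELTF-AS1, TIRAP-AS1 and ZNF232-AS1 held them.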

How the data were processed

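Libraries of polyadenylated RNA from SK-Hep1 cells were sequenced as read pairs by the authors on an Illumina instrument. The methods describe trimming with fastp, alignment with STAR, GENCODE Release 45 and quantification with RSEM, whereas the labels list fastp and HISAT2 2.0.5. The authors deposited gene-level TPM rounded to 2 decimals, 1 file a library. The 62700 versioned identifiers match Release 44, whose annotation gave symbols, positions, exons and GC content. The depth of the libraries is unknown from TPM, and the precision is that of 3 libraries a group. Nothing states that these came from separate cultures, so p-values measure the spread between libraries, which may be technical.

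Groups and replicate numbers were taken from the titles. log2(TPM + 1) of 14020 genes (mean over all libraries of 1 TPM or more) was fitted in R 4.3.3 with limma 3.58.1 (lmFit, eBayes with trend, two-sided, no replicate block), with a threshold of 0.05 on the p adjusted by Benjamini-Hochberg over all of them. Single values were tested by exact permutation in scipy 1.17.1. On simulated data for this comparison, 10 of 200 genes changed by 1 on the log2 scale were called among 13565 tested and 161 of 200 changed by 2 among 13544. The changed genes were drawn only from those with a control level well above the median of the members, and the libraries were simulated as independent. These shares therefore do not apply to low members, and 233 of the 336 members were under 5 TPM. Correlations of the deviations of same-numbered libraries from their group means were 0.41, 0.04 and 0.28. The titles give only a replicate number, so the main fit took the libraries as unpaired, and a replicate block was run as an alternative.

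The members, lists and tests were chosen with earlier results of these data known. Named were the called members, the 8 largest increases and decreases among those whose groups did not overlap, the 5 highest by mean level, MAPKAPK5-AS1, DNAJC9-AS1 and ZBTB11-AS1, 3 on each side of the threshold, the 5 pairs with the greatest difference between antisense and sense, their sense genes, RAB30-DT and called genes of the protein lists, of which there were 0. Examples from the lists, the cell type markers, the called sense partners, NEAT1, MALAT1, RNF185-AS1 and PHLDA1-AS1 fall outside this rule and were chosen after their values were seen. The alternatives were other pseudocounts, filters, scalings, variance models, library weights, removal of the GC trend, a replicate block, other thresholds and leaving out each library, and, added after seeing the data, 2 subsets of the members.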

Additional observations from a re-analysis of the deposited data

How the results depend on the processing

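The median log2 fold change of the antisense lncRNAs was positive in every alternative run. It was 0.31 and 0.11 with pseudocounts of 0.1 and 5, 0.15 after quantile normalization and 0.16 to 0.28 when each library was left out. The report gives 3 members, 8 sense partners and 146 genes of the whole table as called (limma). Without a filter on low values these were 0, 0 and 13, with library weights 45, 51 and 1936, with the GC trend removed 25, 32 and 1213, with thresholds on the adjusted p of 0.1 and 0.01 they were 11, 15 and 455, and 0, 0 and 16, and without 1 library 0 to 8, 0 to 14 and 12 to 489. In genes of 5 TPM or more 1 member was called, and without the variance trend 4 sense partners. A replicate block gave 15, 24 and 861, and the block together with removal of the GC trend 20, 27 and 1039. Deviations of same-numbered libraries from their group means correlated at 0.41, 0.04 and 0.28. GC content was also correlated with the deviation of each gene from its own mean over all libraries. The Spearman rho was -0.61, 0.29 and 0.49 in control and -0.52, 0.02 and 0.34 in knockdown replicates 1, 2 and 3. Whether same-numbered libraries shared a batch is not stated and was not tested. Members separated between the groups, 66 above and 19 below, numbered 25 and 7 in genes of 5 TPM or more, where 103 members were left to test, and 78 to 107 above and 21 to 33 below without 1 library, where fewer libraries have to be separated. The share of all tested genes separated in these settings was not worked out, so these counts give no comparison with other genes. Of the subsets chosen after seeing the data, members at 1 TPM in both groups held 1 called member, and those without exon overlap on the other strand held 0, with a median of 0.33 and 13 above and 1 below.

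Among the 53 named genes, 39 of the alternative values turned in direction, each for a gene that was not called, and the cause was not tested. With another scaling, FGD5-AS1 was at 0.021 (median of ratios) and 0.13 (quantile), FRMD6 at 0.034, EML2 at 0.061, GNAS at 0.070, KAZN at 0.023 and 0.048, FOXD1 at 0.11 and MAPKAPK5 at 0.040. With library weights, FGD5-AS1 was at 0.068, DNAJC9-AS1 at -0.084, THBS3-AS1 at 0.052, ZNF114-AS1 at 0.25 and MAPKAPK5 at 0.10. With the GC trend removed, with or without the block, EML2 was at 0.024, KAZN at 0.047 and FOXD1 at 0.067. Leaving out each library gave -0.14 to 0.18 for FGD5-AS1, -0.31 to 3.89 for TUBA1B-AS1, -0.0095 to 0.23 for ZBTB11-AS1, -0.033 to 0.34 for DNAJC9-AS1, -0.18 to 0.089 for HOXB-AS4, -0.67 to 0.067 for PCDHB1-AS1, -0.37 to 0.026 for THBS3-AS1, -0.63 to 0.060 for ZNF114-AS1, -0.054 to 0.35 for MELTF, -0.22 to 0.14 for EML2, -0.11 to 0.071 for KAZN, -0.29 to 0.10 for FOXD1 and -0.13 to 0.14 for MAPKAPK5.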
